A study of Rattus norvegicus with 72 samples.

Results

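B cells in the lung were followed here through 8 genes, Ms4a1, Cd79a, Cd79b, Fcer2, Pax5, Cd22, Blk and Cr2. They were taken as the rows of the count table that carry these symbols. All 8 symbols were found among the 30042 rows. The values come from RNA sequencing of whole lung tissue from 72 male Sprague-Dawley rats, an outbred laboratory strain, with 1 library per animal. Exposed rats stayed in chambers whose air carried DEP, particles of diesel exhaust, at 1000 ug/m3 in some groups and 200 ug/m3 in others, and control rats breathed filtered air. All were in the chambers for 6 hours a day on 4 days. Pieces of lung were taken 1, 7 or 27 days after that, which gives 12 groups of 6 animals. Animals at 1000 ug/m3 carry the letter H in their titles and were set against the air animals with an H (air H) of the same day. Animals at 200 ug/m3 carry the letter L and were set against air L, so no air animal served both doses. No label explains the letters, and body weight (200 to 250 g) is given in place of an age.

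A B cell recognises antigen through its receptor, a membrane immunoglobulin that signals through the paired chains Cd79a and Cd79b. Src family kinases such as Blk pass the signal on, co-receptors such as Cr2 amplify it, and inhibitory receptors such as Cd22 damp it. Pax5 is the transcription factor that holds cells in the B lineage until they become plasma cells and lose most of these transcripts. The lung holds few B cells at rest, in its blood vessels, in its tissue and in bronchus-associated lymphoid tissue, and rat lung is known for well developed lymphoid tissue of that kind.

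Libraries held 1042336 to 2397971 counts at day 1, and at least 3471134 counts at days 7 and 27 apart from 3 shallow libraries. Those 3 had fewer than 500000 counts, and all belonged to animals exposed at 1000 ug/m3: animal 037 at day 7 with 105453 counts, and animals 024 and 045 at day 27 with 439393 and 149004 counts. In them 1 read is worth a large value, so the fits were repeated without them, which changed no count of called members. Levels are TMM-scaled CPM, counts per 1000000 reads after the trimmed-mean scaling of edgeR. A CPM is not divided by transcript length, so levels are compared within a gene and not between genes. In whole lung, fewer B cells and less RNA per B cell cannot be told apart.

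The 8 genes were of low abundance. Summed over 72 libraries, Cd22 had 4630 counts, Cd79b 4389, Cr2 3747, Ms4a1 2894, Blk 1063, Pax5 964 and Fcer2 917. Cd79a had 62 counts, and 41 libraries held none. Ms4a1, Cd79b, Cd22 and Cr2 were detected in all 72 libraries, and the libraries without a count of Fcer2, Pax5 or Blk were among the 3 shallow ones. At days 7 and 27, and in the fit of all libraries, 7 of the 8 genes passed the filter on low counts. At day 1, where libraries were shallower, 5 of 8 passed and Pax5 and Blk did not. Cd79a passed nowhere.

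RefSeq promoters of the assembly GRCr8 were found for 3 of the 8 genes in the sequence table used. They are shown because most pairs of members were correlated between animals, as described further on. A further reason is that a second row carries the GRCr8 gene ID of Cd79a. Each runs from 250 bases before to 50 bases after the annotated start, 5′ to 3′ along the gene, with matches to 4 short motifs of lymphoid transcription factors in capitals. The windows are chr1:89621210-89621509 on the plus strand for Cd79a, chr1:95259681-95259980 on the minus strand for Cd22 and chr13:109244457-109244756 on the minus strand for Cr2.
Cd79a: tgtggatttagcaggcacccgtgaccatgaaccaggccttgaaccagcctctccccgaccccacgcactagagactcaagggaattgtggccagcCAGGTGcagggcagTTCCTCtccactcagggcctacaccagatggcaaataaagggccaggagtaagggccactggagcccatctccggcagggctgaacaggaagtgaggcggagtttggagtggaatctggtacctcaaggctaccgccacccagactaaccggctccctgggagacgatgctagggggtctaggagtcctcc
Cd22: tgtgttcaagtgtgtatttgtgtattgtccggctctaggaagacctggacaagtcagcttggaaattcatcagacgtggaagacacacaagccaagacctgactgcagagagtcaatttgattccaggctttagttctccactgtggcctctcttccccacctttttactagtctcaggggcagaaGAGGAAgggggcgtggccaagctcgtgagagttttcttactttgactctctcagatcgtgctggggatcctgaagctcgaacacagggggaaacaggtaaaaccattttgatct
Cr2: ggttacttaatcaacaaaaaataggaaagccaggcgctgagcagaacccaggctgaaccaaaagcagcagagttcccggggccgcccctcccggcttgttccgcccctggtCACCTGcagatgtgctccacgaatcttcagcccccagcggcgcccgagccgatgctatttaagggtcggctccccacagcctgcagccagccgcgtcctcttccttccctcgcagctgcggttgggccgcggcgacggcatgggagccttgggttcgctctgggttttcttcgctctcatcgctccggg
The motifs were searched on both strands. They were the octamer ATTTGCAT bound by Oct factors, the PU.1 core GAGGAA, the E-box CAGGTG of E2A proteins and the core TCCCNNGGG of EBF1, and no match overlapped another. Cd79a had an E-box at position -155 and a PU.1 core on the opposite strand at position -141, counted from the start site. Cd22 had a PU.1 core at position -64, and Cr2 had an E-box on the opposite strand at position -139. Of 33469 rat promoters of this length, 27.6% held the PU.1 core, 18.8% the E-box, 5.91% the EBF1 core and 1.78% the octamer. Neither the octamer nor the EBF1 core was in these 3 windows. The matches are matches of letters and were not tested as binding sites.

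Cd79a, the alpha chain of the receptor complex, was close to undetected under its own symbol. Its median was 0 CPM in 6 of the 12 groups and at most 0.432 CPM in the others. Of the 41 libraries with no count, 38 had at least 500000 counts, and in those a count of 0 allows a level of up to 0.468 to 2.57 CPM (3 counts per library, counting error only). The highest value was 3.44 CPM, from 16 counts, in animal 020 of air H at day 27. No difference in this row was testable at so few counts.

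A second row of the table may carry reads of this gene. The row is named LOC100913063, and the gene table of GRCr8 gives that number as the gene ID of Cd79a. It was chosen after its values were seen and is not one of the 8 rows. It held 1031 counts and was at 0 in 3 libraries, with a median of 4.13 CPM over the 69 deeper libraries. In animal 020 of air H, where the Cd79a row had its 16 counts, this row had 25. Within groups it followed the mean of the other 7 members (Pearson's r 0.57, Spearman's rho 0.57, 69 libraries, given as a description), while the Cd79a row did not (r 0.08, rho 0.07). Its log2 differences from air H at 1000 ug/m3 were 0.03 (SE 0.41) at day 1 and 0.11 (SE 0.33) at day 7. At 200 ug/m3, those from air L were -0.10 (SE 0.38), -0.55 (SE 0.32) and 0.16 (SE 0.34) at days 1, 7 and 27, and none passed. The largest was at 1000 ug/m3 on day 27. At day 27 the row had 0 to 4.04 CPM (median 1.71) at 1000 ug/m3, against 2.49 to 7.88 CPM (median 4.85) in air H, and the groups overlapped. Both shallow libraries of the exposed group were at 0, and its other 4 animals had 1.39 to 4.04 CPM (median 3). The log2 difference was -0.79 (SE 0.39) and did not pass edgeR's quasi-likelihood test (adjusted p = 0.712). Without the shallow libraries it was -0.72 (SE 0.40; adjusted p = 0.759). With both rows summed, it was -0.90 (SE 0.39; adjusted p = 0.685). How reads were divided between the 2 rows was not tested. Reads were counted on the build Rnor_6.0. Whether both rows are 1 gene in the annotation used for counting could not be settled from the sources used here.

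No member passed the test of exposed against air lungs at either dose on any day. Each comparison was tested with edgeR's quasi-likelihood test, and p-values were adjusted over all genes tested by the Benjamini-Hochberg method, with a threshold of 0.05. Counts of members that passed were 0 of 5 at day 1, and 0 of 7 at days 7 and 27, in all 6 comparisons. The background was as low. At 1000 ug/m3, 0% of the genes tested were called at each day. At 200 ug/m3, 0% were called at days 1 and 27 and 0.00698% (1 of 14331 genes) at day 7. DESeq2 and limma-voom also called 0 members in these 6 comparisons, and so did each fit that left out 1 library. At an unadjusted p under 0.05, edgeR gave 2 members at 1000 ug/m3 on day 7, 1 at 200 ug/m3 on day 7 and 1 at 200 ug/m3 on day 27.

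**Figure D1:**
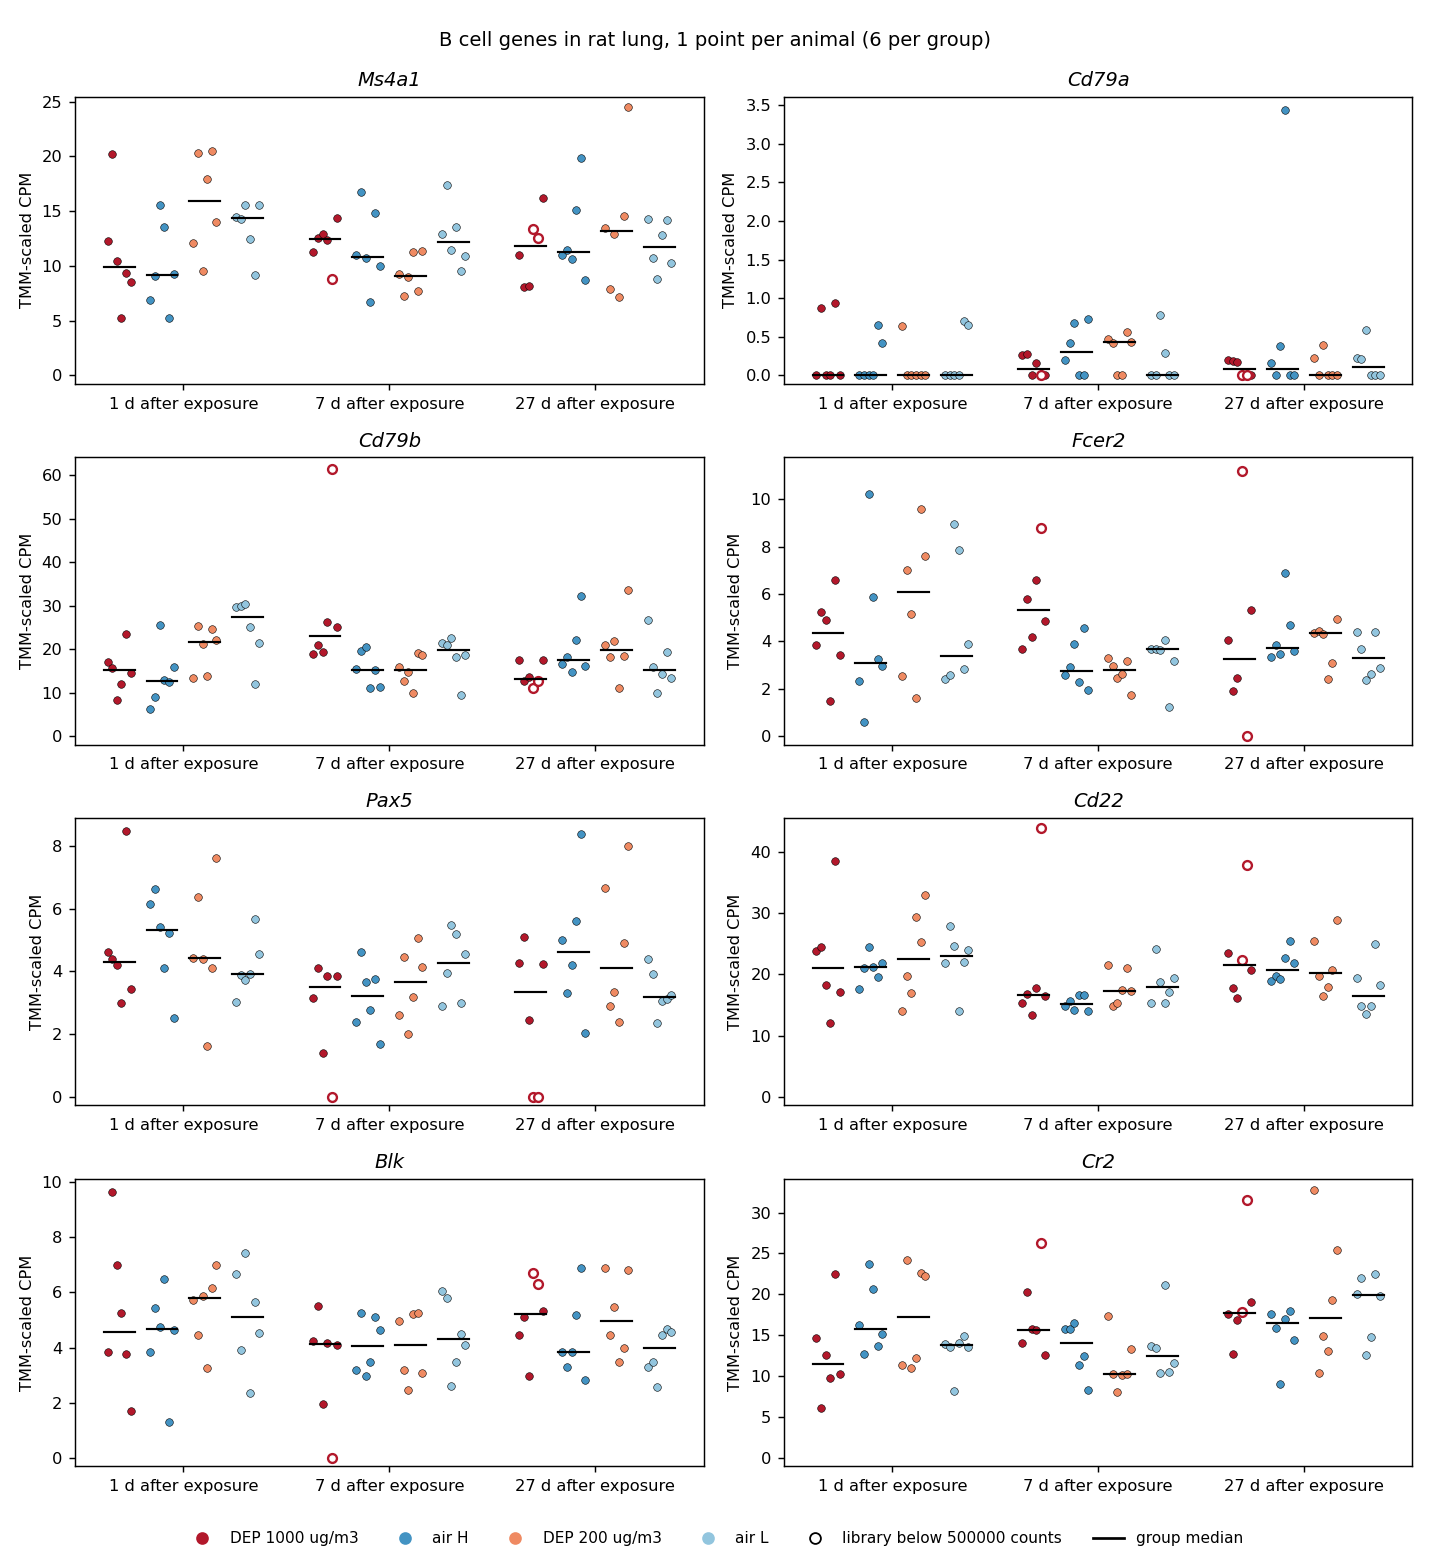
TMM-scaled CPM (vertical axis) of the 8 genes in each of 72 lungs, by day and group, with group medians as bars and the 3 libraries below 500000 counts as open circles. Exposed and air animals overlap in every panel and day, Cd79a lies at or near 0, and open circles give the highest points of Cd79b, Fcer2 and Cd22.

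Cd79b, the beta chain of the receptor complex, had its largest exposure difference at 1000 ug/m3 on day 7. At day 1 it had 8.40 to 23.5 CPM (median 15.2) at 1000 ug/m3, against 6.16 to 25.7 CPM (median 12.7) in air H. At day 7 it had 19 to 61.4 CPM (median 23) at 1000 ug/m3, against 11.1 to 20.6 CPM (median 15.3) in air H. At day 27 it had 11.2 to 17.6 CPM (median 13.2) at 1000 ug/m3, against 14.8 to 32.2 CPM (median 17.5) in air H. All 6 exposed animals of day 7 lay above the median of air H, yet the ranges overlapped. The value of 61.4 CPM rests on 7 counts in the shallow library 037, and the other 5 exposed animals had a mean of 22.1 ± 3.36 CPM (SD) against 15.5 ± 3.96 CPM in air H (SD, n = 6). The fitted log2 difference at day 7 was 0.55 (SE 0.20, 95% interval 0.16 to 0.93). Its unadjusted p was 0.00958 and its adjusted p 1 in edgeR. Without the shallow libraries it was 0.51.

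Cd79b at 200 ug/m3 leaned the other way at days 1 and 7. It had 13.3 to 25.4 CPM (median 21.7) at 200 ug/m3, against 12.1 to 30.5 CPM (median 27.4) in air L, at day 1. On day 7 the ranges were 9.85 to 19.1 CPM (median 15.3) at 200 ug/m3 and 9.50 to 22.7 CPM (median 19.9) in air L. On day 27 they were 11.2 to 33.6 CPM (median 19.7) at 200 ug/m3 and 10 to 26.7 CPM (median 15.1) in air L. None of the 6 exposed animals of days 1 and 7 exceeded the air L median, and at day 27 5 of 6 did. The log2 differences were -0.29 (SE 0.24), -0.29 (SE 0.19) and 0.34 (SE 0.23) at days 1, 7 and 27. None passed the test.

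Blk, a Src family kinase found mainly in B cells, was tested at days 7 and 27. At day 7 it had 0 to 5.49 CPM (median 4.14) at 1000 ug/m3, against 2.97 to 5.25 CPM (median 4.04) in air H. Lungs at 200 ug/m3 had 2.47 to 5.25 CPM (median 4.08), against 2.61 to 6.06 CPM (median 4.30) in air L. The 0 was the shallow library 037, and the medians lay close together. At day 27 the log2 difference at 200 ug/m3 was 0.44 (SE 0.23, 95% interval -0.01 to 0.89), with 5 of 6 exposed animals above the air L median. The other 3 differences of Blk at days 7 and 27 were between -0.15 and 0.12.

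Cr2, the complement receptor that binds C3 fragments on antigen, had its largest exposure differences at day 1, in opposite directions at the 2 doses. Lungs at 1000 ug/m3 had 6.14 to 22.5 CPM (median 11.4), against 12.7 to 23.7 CPM (median 15.7) in air H. Those at 200 ug/m3 had 11 to 24.2 CPM (median 17.2), against 8.19 to 14.9 CPM (median 13.8) in air L. Only 1 of 6 animals at 1000 ug/m3 exceeded the air H median, and 3 of 6 at 200 ug/m3 exceeded the air L median. The log2 differences were -0.42 (SE 0.24) and 0.41 (SE 0.23), with edgeR adjusted p = 1 and 0.853. At day 7 they were 0.23 (SE 0.19) at 1000 ug/m3 and -0.22 (SE 0.19) at 200 ug/m3, and at day 27 they were 0.15 (SE 0.24) and 0.06 (SE 0.22).

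Cd22, an inhibitory receptor that binds sialic acids, varied least. At day 7 it had 13.4 to 43.9 CPM (median 16.6) at 1000 ug/m3, against 14.1 to 16.7 CPM (median 15.3) in air H. The 43.9 CPM rests on 5 counts in library 037, and without it the exposed mean was 16 ± 1.67 CPM (SD, n = 5) against 15.3 ± 1.16 CPM in air H (SD, n = 6). Exposure differences of Cd22 ran between -0.08 and 0.09 on the log2 scale in 5 of the 6 comparisons. The other was 0.30 (SE 0.15, 95% interval 0.02 to 0.59) at 200 ug/m3 on day 27, where 5 of 6 exposed animals lay above the air L median and edgeR's adjusted p was 0.507. Lungs at 200 ug/m3 then had 16.4 to 28.9 CPM (median 20.2), against 13.6 to 24.9 CPM (median 16.6) in air L.

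Ms4a1, which encodes the B cell surface protein CD20, gave its largest exposure difference at 200 ug/m3 on day 7. It had 7.24 to 11.4 CPM (median 9.11) at 200 ug/m3, against 9.50 to 17.4 CPM (median 12.2) in air L. All 6 exposed animals lay below the air L median, and the ranges overlapped. The log2 difference was -0.45 (SE 0.17, 95% interval -0.79 to -0.11), with unadjusted p = 0.014 and edgeR adjusted p = 0.729. The same day it had, at 1000 ug/m3, 8.78 to 14.4 CPM (median 12.5), against 6.68 to 16.8 CPM (median 10.9) in air H, a log2 difference of 0.12 (SE 0.18). The other 4 differences of Ms4a1 lay between -0.19 and 0.20.

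Fcer2, the low-affinity IgE receptor CD23 that mature B cells carry, had the largest exposure difference of the members tested, which leaves out Cd79a. At day 7 it had 3.69 to 8.78 CPM (median 5.32) at 1000 ug/m3, against 1.95 to 4.57 CPM (median 2.77) in air H. Every exposed animal exceeded the air H median, and the lowest exposed animals overlapped the highest air animal. The 8.78 CPM is 1 count in library 037, and the other 5 exposed animals had a mean of 5.03 ± 1.17 CPM (SD) against 3.04 ± 1.00 CPM in air H (SD, n = 6). The log2 difference was 0.76 (SE 0.25, 95% interval 0.27 to 1.24), with unadjusted p = 0.00452 and edgeR adjusted p = 1. It was 0.75 without the shallow libraries and 0.63 to 0.90 when 1 library of the pair of groups was left out. Its day 7 values at 200 ug/m3 were 1.75 to 3.31 CPM (median 2.79), against 1.25 to 4.04 CPM (median 3.67) in air L, a log2 difference of -0.25 (SE 0.26). At days 1 and 27 the differences of Fcer2 lay between -0.21 and 0.30, on 31 counts summed over 6 libraries at 1000 ug/m3 and 41 in air H at day 1.

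The H animals fall into 2 series of animal numbers whose meaning the labels do not give, and the day 7 values were read within each. In the first series (4 animals a group), Fcer2 averaged 5.06 CPM at 1000 ug/m3 and 2.93 CPM in air H, and Cd79b averaged 21.3 CPM at 1000 ug/m3 and 16.6 CPM in air H. In the second (2 animals a group, with library 037 among the exposed), Fcer2 averaged 6.82 CPM at 1000 ug/m3 and 3.26 CPM in air H. Cd79b then averaged 43.3 CPM at 1000 ug/m3 and 13.4 CPM in air H. Library 037 held 1 count of Fcer2 and 7 counts of Cd79b, so the second series rests largely on animal 038. That animal had 4.87 CPM of Fcer2 and 25.1 CPM of Cd79b, against at most 4.57 and 15.3 CPM in air H of its series. Both genes were on the same side in both series. With the series as a term in the fit, the log2 differences were 0.77 for Fcer2 and 0.54 for Cd79b, and neither passed (adjusted p = 0.887 and 0.891 in edgeR).

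Pax5 was tested at days 7 and 27. At day 27 it had 0 to 5.10 CPM (median 3.33) at 1000 ug/m3, against 2.03 to 8.37 CPM (median 4.61) in air H, and both shallow libraries of that group were at 0. Lungs at 200 ug/m3 had 2.40 to 8 CPM (median 4.12), against 2.36 to 4.41 CPM (median 3.17) in air L. The log2 differences were -0.28 (SE 0.33) and 0.49 (SE 0.31), neither past the test, and those of day 7 were 0.06 (SE 0.28) and -0.21 (SE 0.26). Without the shallow libraries, the differences at 1000 ug/m3 on day 27 were -0.20 for Pax5, -0.30 for Fcer2 and -0.36 for Cd79b, and 0.09 for Blk and 0.13 for Cr2.

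**Figure D2:**
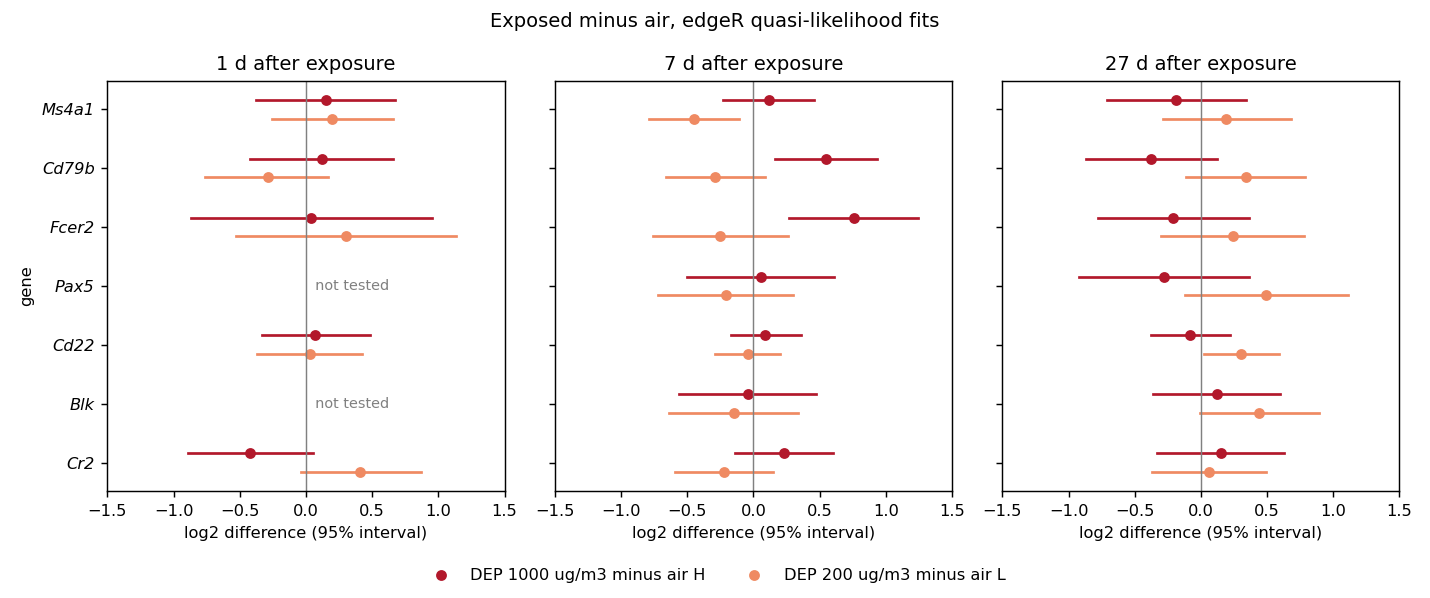
Log2 differences (horizontal axis) of the members between exposed and air lungs at each day with 95% intervals, from edgeR fits of the 24 libraries of a day. The intervals of Fcer2 (0.27 to 1.24) and Cd79b (0.16 to 0.93) at 1000 ug/m3 and Ms4a1 (-0.79 to -0.11) at 200 ug/m3 on day 7 lie to 1 side of 0 before adjustment, as does that of Cd22 at 200 ug/m3 on day 27.

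Read as a list, the members had no common direction over the 6 comparisons. Their median log2 difference at 1000 ug/m3 was 0.07 at day 1 (5 genes), 0.12 at day 7 (7 genes) and -0.19 at day 27 (7 genes), with 4, 6 and 2 of them above 0. At 200 ug/m3 it was 0.20, -0.22 and 0.30 at days 1, 7 and 27, with 4 of 5, 0 of 7 and 7 of 7 above 0. The median of all genes tested was 0.00 in each of these comparisons, and 49.7% to 50.5% of genes were above 0. Genes that share cells share their sampling, so the members are not independent of each other. Averaged over the 6 comparisons, the log2 difference of the members ran between 0.00 for Ms4a1 and Cd79b (SE 0.10 each) and 0.14 for Fcer2 (SE 0.14). The interval of Ms4a1 was -0.20 to 0.19 and that of Cd22 -0.08 to 0.19. For this mean over doses and days, 0 of 7 members and 0.0134% of all genes (2 of 14956) were called.

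Whether the effect differed between doses was tested directly, as the difference at 1000 ug/m3 from air H minus the difference at 200 ug/m3 from air L. No member passed at day 1 (background 0.00813%, 1 of 12304 genes), day 7 (background 0%) or day 27 (background 0%). The largest at day 7 were 1.01 for Fcer2 (SE 0.36, 95% interval 0.31 to 1.71) and 0.83 for Cd79b (SE 0.27, 95% interval 0.29 to 1.37), each with edgeR adjusted p = 0.891. Ms4a1 followed with 0.57 (SE 0.25), and all 7 members were above 0 at day 7. At day 27 Cd79b had the smallest p, with -0.72 (SE 0.34), and 6 of 7 members were below 0. At day 1 the value of Cr2 was -0.83 (SE 0.33). At an unadjusted p under 0.05 there were 1, 3 and 1 members at days 1, 7 and 27, and DESeq2 also called none. Changes of an effect between days did not pass for any member either. The background was 0.0134% (2 of 14956 genes) for the change at 200 ug/m3 from day 7 to day 27 and 0% for the other 5 such changes. The smallest p was that of Cd79b at 1000 ug/m3, whose effect at day 27 minus that at day 7 was -0.93 (SE 0.33; adjusted p = 1 in edgeR).

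A direct comparison of the exposed groups at day 7 did call 2 members, but these groups also differ in the letter. Lungs at 1000 ug/m3 exceeded those at 200 ug/m3 in Fcer2, with no overlap: 3.69 to 8.78 CPM against 1.75 to 3.31 CPM, a log2 difference of 0.89 (SE 0.25, edgeR adjusted p = 0.00786). Cd79b was higher as well, with 19 to 61.4 CPM at 1000 ug/m3 against 9.85 to 19.1 CPM at 200 ug/m3, a log2 difference of 0.56 (SE 0.20, adjusted p = 0.0335). The call of Cd79b was lost in a fit of all 72 libraries (adjusted p = 0.0627) and without the filter (adjusted p = 0.0583), and both calls held without the shallow libraries (adjusted p = 0.00836 for Fcer2 and 0.0323 for Cd79b). In this comparison 27.9% of all genes were called, so 2 of 7 is near the background. Ms4a1 (0.43) and Cr2 (0.43) did not pass, with adjusted p = 0.071 and 0.101, although Ms4a1 passed without scaling factors (adjusted p = 0.047) and with only these groups fitted (0.0463). Between the same exposed groups, 0 members and 0% of genes were called at day 1, and 0 members and 0% at day 27.

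**Figure D3:**
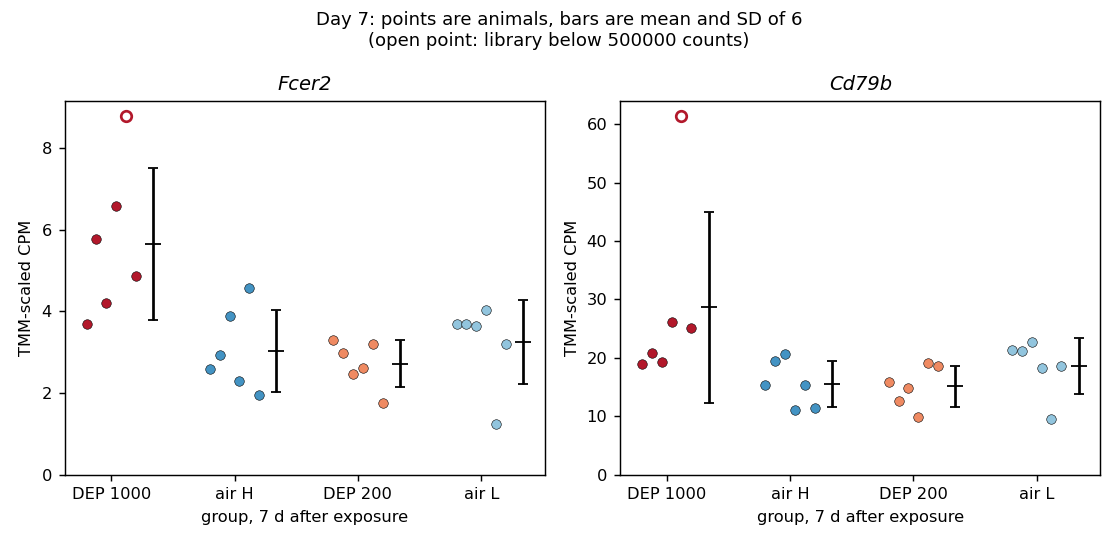
Fcer2 and Cd79b in the 4 groups of day 7 as TMM-scaled CPM (vertical axis), each point an animal and each bar the mean and SD of 6. Lungs at 1000 ug/m3 lie highest for both genes, and the open points are library 037 with 1 count of Fcer2 and 7 counts of Cd79b.

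The air groups alone, which differ in the letter and not in exposure, gave the size of that other difference. At day 7, 25.5% of genes differed between air H and air L, at day 27 14% and at day 1 1.68%, and 0 members passed on any of the 3 days, with 1, 1 and 0 members at an unadjusted p under 0.05 at days 1, 7 and 27. Cd79b came closest at day 1, with 6.16 to 25.7 CPM (median 12.7) in air H against 12.1 to 30.5 CPM (median 27.4) in air L. Its log2 difference was -0.86 (SE 0.25, edgeR adjusted p = 0.0631). At day 7 all 7 members were below 0, between -0.43 for Pax5 and -0.02 for Cr2. At day 27 6 of 7 were above 0, between -0.28 for Cr2 and 0.47 for Pax5. Dose and letter cannot be told apart in a comparison of both exposed groups.

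Some members also passed between days within a group, where many genes of all kinds did. In air H, 1 of 7 members passed from day 1 to day 7 and 1 of 7 from day 7 to day 27, beside 36.1% and 26.6% of all genes. At 1000 ug/m3 these counts were 1 and 0 of 7, beside 37.5% and 15.8%. At 200 ug/m3 they were 2 and 1 of 7, beside 12.4% and 5.18%. Counts among 7 genes are too small to set the members apart from other genes. Day 1 libraries were shallower than the rest, and day and depth cannot be told apart in these comparisons. Cd22 fell between day 1 and day 7 in air H, to 14.1 to 16.7 CPM at day 7 against 17.7 to 24.4 CPM at day 1, with no overlap (log2 difference -0.50, SE 0.17, edgeR adjusted p = 0.0197, background 36.1%). At day 27 it was higher again, 19 to 25.4 CPM, also without overlap with day 7 (0.47, SE 0.15, adjusted p = 0.0122, background 26.6%). Median depth in air H was 1619429.5 counts at day 1, 4316997.5 at day 7 and 5506747 at day 27, so depth differed in this step too. Cd22 at 1000 ug/m3 was lower at day 7 than at day 1 by a log2 difference of -0.47 (SE 0.19, adjusted p = 0.0445, background 37.5%), a call lost under 5 of the alternatives. From day 7 to day 27 at 1000 ug/m3 no member passed (background 15.8%). There Cd79b had 11.2 to 17.6 CPM at day 27 against 19 to 61.4 CPM at day 7, without overlap, a log2 difference of -0.58 (SE 0.24, edgeR adjusted p = 0.0928), or -0.52 without the shallow libraries.

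The fall at 200 ug/m3 between days 1 and 7 passed for Ms4a1 and Fcer2. Ms4a1 had 7.24 to 11.4 CPM at day 7 against 9.54 to 20.5 CPM at day 1 (log2 difference -0.79, SE 0.25, edgeR adjusted p = 0.0224, background 12.4%). Fcer2 had 1.75 to 3.31 CPM at day 7 against 1.63 to 9.58 CPM at day 1 (-1.07, SE 0.35, adjusted p = 0.0302), on 73 counts at day 7 and 50 at day 1. The call of Fcer2 was lost in limma-voom (-0.94, adjusted p = 0.0786), and the gene was not tested when only these groups were fitted. All 7 members were below 0 in this step, between -1.07 and -0.38. From day 7 to day 27 all 7 were above 0, between 0.25 and 0.72, and Cr2 passed with 10.4 to 32.8 CPM at day 27 against 8.08 to 17.3 CPM at day 7 (0.72, SE 0.21, adjusted p = 0.0253, background 5.18%). That call was lost when only these groups were fitted (adjusted p = 0.177). In air L no member passed in either step (background 14.5% between days 1 and 7, 16.6% between days 7 and 27). No difference between these day steps in exposed and air animals passed, as given above.

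The 12 group means of each member were put in order, and the gaps between neighbours were set against the spread. Sorting makes such gaps small, so they do not test whether groups differ. For each of the 7 members, all 11 gaps between neighbours were smaller than the larger SD of the 2 groups. Against the smaller SD, 10 of the 11 gaps of Cd22 were smaller, and all 11 of each other member. The SDs include the shallow libraries. The ratio of the highest to the lowest group mean was 1.5 for Cd22, 1.63 for Blk, 1.67 for Cr2, 1.69 for Ms4a1, 1.88 for Pax5, 2.08 for Fcer2 and 2.09 for Cd79b. Cd79b and Fcer2 had their highest mean at 1000 ug/m3 on day 7 (28.7 and 5.65 CPM), with the shallow library 037 included. Their ratios above include it too. Without it those means were 22.1 and 5.03 CPM. At day 1, Cd79b in air L (24.8 CPM) and Fcer2 at 200 ug/m3 (5.58 CPM) lay above them. Ms4a1, Fcer2 and Cr2 all had their lowest mean at 200 ug/m3 on day 7 (9.30, 2.72 and 11.6 CPM). The lowest means of Pax5 and Blk, at 1000 ug/m3 on days 27 and 7 (2.67 and 3.33 CPM), include shallow libraries at 0.

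Within groups the members varied more between animals than most genes. The biological coefficient of variation, the spread between animals that edgeR estimates beyond counting error, was 0.255 for Cd79b, 0.245 for Pax5, 0.238 for Fcer2, 0.230 for Cr2 and 0.229 for Ms4a1. Those values lie at percentiles 90.2 to 92.6 of the 14956 genes tested, whose median was 0.101. Blk had 0.176 (percentile 81.4) and Cd22 0.139 (percentile 70.6). Genes of low level tend to higher values on this scale, and a comparison at matched level was not made.

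Most pairs of members were correlated within groups. Each member's log2 CPM was taken as a deviation from its group mean in the 69 libraries of at least 500000 counts, and all 28 pairs were correlated. The p-values come from 100000 permutations within groups and were adjusted over the 28 pairs. The 21 pairs without Cd79a had Pearson's r between 0.09 and 0.62 (median 0.38), and 16 of them passed at an adjusted p of 0.05, or 17 by Spearman's rho. Pairs of other genes were not tested, so no background share stands beside these counts. The highest was Cd79b with Fcer2, receptor chain and IgE receptor (r 0.62, rho 0.64, p = 1e-05, the smallest the permutations can give, adjusted p = 0.00028). With the 2 animals farthest from the Cd79b median left out, r was 0.58. Ms4a1 with Cd79b followed (r 0.58, rho 0.58, permutation p = 2e-05, adjusted p = 0.00028), and r was 0.57 without the 2 farthest animals. The lowest was Blk with Cr2 (r 0.09, rho 0.16, permutation p = 0.554, adjusted p = 0.674). None of the 7 pairs with Cd79a passed by r, with values between -0.04 and 0.23, and 1 passed by rho.

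With all 72 libraries, the 3 shallow ones included, the median r of the 21 pairs was 0.23 and 8 of the 28 pairs passed. At days 7 and 27 alone, in 45 libraries, the median was 0.50. Set against the mean of the other 6 members, Ms4a1 had r 0.65, Cd79b 0.64, Fcer2 0.57, Cd22 0.56, Cr2 0.52, Pax5 0.51 and Blk 0.34. These are descriptions, since genes counted in 1 library share its depth and its scaling. Animals with the highest and lowest mean over the 7 members were picked by that mean, so members on its side are no separate finding. Animal 094 at 200 ug/m3 on day 27 lay 0.59 above its group mean on the log2 scale, averaged over the 7 members, with 7 of 7 above. Animal 092 of that group lay at -0.56, with 0 of 7 above. In the air groups, animal 003 of air H at day 1 lay 0.61 above with 7 of 7, and animal 084 of air L at day 27 at -0.45 with 0 of 7. Others were less uniform, such as animal 029 at 1000 ug/m3 on day 1 (0.51, 5 of 7 above) and animal 060 at 200 ug/m3 on day 1 (-0.47, 2 of 7 above).

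**Figure D4:**
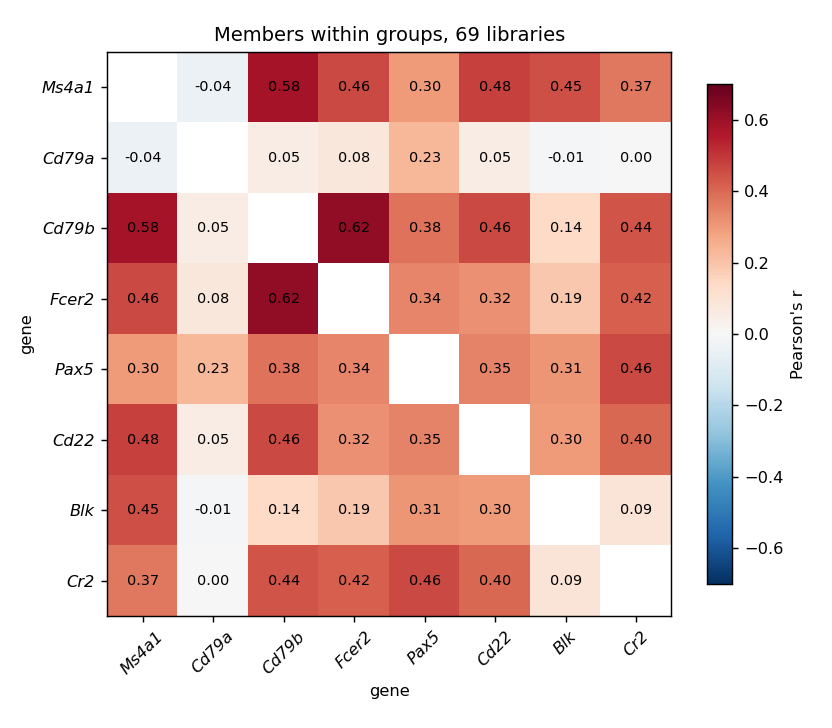
Pearson's r between the 8 members over deviations from the group mean in 69 libraries, as colour and number, with genes on both axes. The row and column of Cd79a lie between -0.04 and 0.23, and the other pairs reach 0.62 for Cd79b with Fcer2.

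The genes whose pattern was most like the members' were looked for among 14942 tested genes. Likeness was the r of a gene's deviation from its group mean with the mean of the 7 members' standardised deviations, over the same 69 libraries, given with no test. The median over all genes was 0.00 and the 99th percentile 0.37. Among the 10 highest, Il21r, the receptor for interleukin 21, had 0.63, Cmah, which makes a form of sialic acid, 0.60, and Fam65b 0.59. B3gnt5, a glycosyltransferase, had 0.57. Btla, an inhibitory receptor of lymphocytes, Dennd1c and Traf3ip3 had 0.56 each, and Fam169b had 0.55. At days 7 and 27 alone, Il21r had 0.77, and 6 of the 10 genes stayed among the 10 highest. A row named only by an identifier was passed over. By its r of 0.57 it is LOC100913063, the row described above that carries the gene ID of Cd79a.

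Lists of related genes were read on the same scale. Of 12 transcription factors of the B lineage, 6 exceeded the 99th percentile, with a list median of 0.37. They were Ikzf3 (0.50), Bcl11a (0.48), Ikzf1 (0.47), Pou2af1 (0.46), Spib (0.43) and, just past it, Pou2f2 (0.37). Of 18 genes of receptor signalling, 5 exceeded it (median 0.22), among them the kinase Syk (0.53), the tetraspanin Cd37 (0.46), Prkcb (0.45) and the adaptor Blnk (0.43). Of 10 genes of homing and survival, 5 did (median 0.24), among them the follicle homing receptor Cxcr5 (0.53), the BAFF receptor Tnfrsf13c (0.39), and Ccr7 and Tnfrsf13b (0.38 each). Of 10 genes of MHC class II, 2 did, RT1-DOb (0.50) and the transactivator Ciita (0.45), against a list median of -0.04. No gene of the plasma cell list (5 genes, median -0.07) or of the germinal centre list (7 genes, median -0.02) did. Only 6 of the 17 plasma cell and immunoglobulin symbols were found in the table, with no immunoglobulin row among them, so antibody transcripts were not analysed here.

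Markers of other cells stood beside these. T cell markers had a median of 0.23 (14 genes, 0 above the 99th percentile), neutrophil markers 0.30 (7 genes, 0 above) and endothelial markers 0.15. NK cell markers (0.01), dendritic cell markers (0.03), ciliated cell markers (0.04) and red blood cell markers (0.09) lay near 0. Type II pneumocyte markers (median -0.35, 8 of 8 genes at -0.29 or below) and alveolar macrophage markers (median -0.31) ran the other way. CPM values of a library share 1 total. What the piece of lung sampled held of each cell type was not tested.

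**Figure D5:**
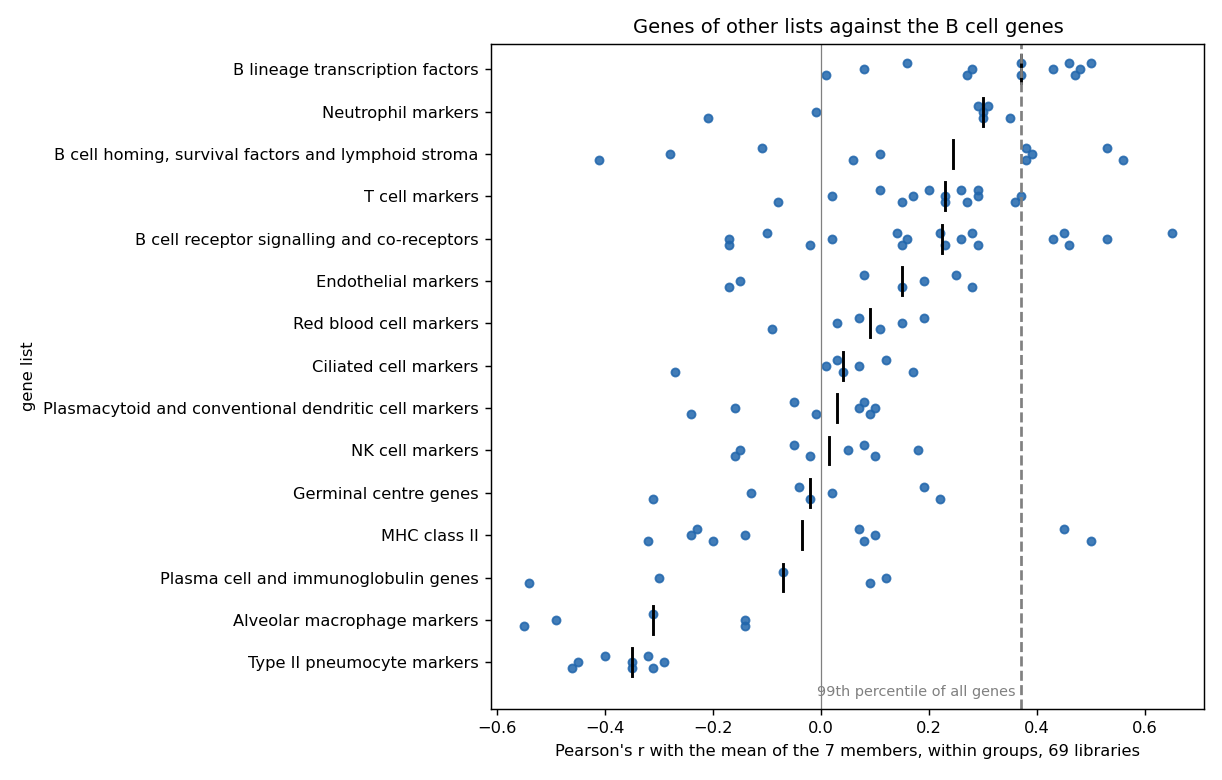
Pearson's r of single genes with the mean of the 7 members (horizontal axis, deviations from group means, 69 libraries), 1 row per gene list, with list medians as bars and the 99th percentile of all genes (0.37) as a dashed line. Lists of B lineage factors, receptor signalling and homing hold genes beyond the line, and type II pneumocyte markers lie at the left with a median of -0.35.

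The wider B cell lists gave no call with exposure, as was so for the members and for nearly all genes. In the 6 exposure comparisons, 0 genes of any of these lists passed the test. The share over all genes was 0.00698% at 200 ug/m3 on day 7 and 0% in the other comparisons, so these counts are at the background. At 1000 ug/m3 on day 7, where Fcer2 and Cd79b had their largest differences, 15 of 18 receptor signalling genes were above 0 with a median of 0.05. The homing list had 8 of 10 genes above 0 (median 0.11), with the smallest p at Tnfrsf13b, a receptor for BAFF and APRIL (0.64, edgeR adjusted p = 1). Transcription factors had 7 of 12 above 0 (median 0.04) and T cell markers 9 of 14 (median 0.05). Summed over 14 markers, T cell transcripts ranged from 174 to 206 CPM at 1000 ug/m3, against 162 to 200 CPM in air H. Of other markers, 8 of 8 for type II pneumocytes (median 0.14) and 7 of 7 for ciliated cells (median 0.19) were above 0, against 0 of 6 for red blood cells (median -0.16) and 4 of 7 for neutrophils (median 0.03). Their part in the values of Fcer2 and Cd79b was not tested.

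On day 7 at 200 ug/m3, where 0 of 7 members were above 0, the counts above 0 were 5 of 18 receptor signalling genes (median -0.04), 3 of 12 transcription factors (median -0.11) and 4 of 10 homing genes (median -0.07). They were 1 of 5 plasma cell genes (median -0.04), 1 of 10 MHC class II genes (median -0.12) and 4 of 6 germinal centre genes (median 0.04). At 200 ug/m3 on day 27, 12 of 18 (median 0.11) and 10 of 12 (median 0.22) were above 0. There Ebf1 had a log2 difference of 0.45 (edgeR adjusted p = 0.309) and 13 of 14 T cell markers were above 0 (median 0.14). At 1000 ug/m3 on day 27, 4 of 18 and 0 of 12 were above 0 (medians -0.08 and -0.12). None of these values passed the test.

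Genes of these lists did pass where the letters differ. Between the exposed groups at day 7, 1000 ug/m3 against 200 ug/m3, 27.9% of all genes were called, and the lists are read against that share. Of 12 transcription factors, 2 rose and 5 fell, with the smallest p at Ebf1 (-0.84, edgeR adjusted p = 2.29e-06), Ikzf3 (-0.70), Irf8 (-0.44) and Pou2af1 (0.49). Of 18 receptor signalling genes, 1 rose and 1 fell, where the gene that fell was the kinase Syk (-0.46). Of 10 homing and survival genes, 3 rose and 0 fell: the chemokine receptor Cxcr4 (0.45), the lymphotoxin receptor Ltbr (0.21) and Tnfrsf13b (0.63). In the plasma cell list, 1 of 5 genes rose, Sdc1 (0.43), the syndecan that marks plasma cells and that epithelium expresses too. In the germinal centre list, 1 of 6 fell, the repressor Bcl6 (-0.62). RT1-DOb was the 1 of 10 MHC class II genes that rose (0.57), and Lck the 1 of 14 T cell markers (0.51).

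Ebf1, a B lineage factor that mesenchymal cells of lung express too, had 15.7 CPM at 1000 ug/m3 and 30.3 CPM at 200 ug/m3. In air lungs of day 7 Ebf1 was lower in air H than in air L as well (-0.93, edgeR adjusted p = 2.34e-07), where 6 of 12 transcription factors fell beside 25.5% of all genes called in either direction. At day 27 it was higher in air H (0.77, adjusted p = 0.000331), where 5 of 12 rose beside 14% of all genes called in either direction. No member passed in either of these air comparisons.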

How the data were processed

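For 72 lung libraries the authors deposited raw counts by gene symbol, and every column was used. Libraries were stranded total RNA, per the labels' protocols. Per the submitters' processing notes, bcl2fastq 2.19, Trimmomatic 0.35, HISAT2 2.1.0, SAMtools 1.8 and HTSeq 0.6.1 and the build Rnor_6.0 were used. The strand setting of counting is not given in the sources used here, so overlapping antisense reads cannot be told apart.

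Counts were fitted with edgeR 4.0.16 in R 4.3.3 (TMM, filterByExpr by group, robust quasi-likelihood). The 24 libraries of a day shared a fit, and steps between days, their changes and mean effects used all 72. P-values were adjusted over all genes tested. Standard errors derive from the F statistic. Correlations used log2 CPM with a prior count of 2. Alternatives used limma 3.58.1, DESeq2 1.42.0, other scalings, filters and samples. The fits were checked on simulated counts, with changes planted only in genes above a set count. That check does not measure power for members of few counts or for small differences. The labels call the libraries separate animals.

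The members, the lists and the tests were chosen with earlier results of these data known. All members are named. Lists give up to 4 passing genes of smallest p in a described comparison, otherwise at most the gene of smallest p, and likeness the 10 highest genes, of which some are not reported here. Other genes named from the lists were chosen after their values were seen.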

Additional observations from a re-analysis of the deposited data

Results flagged for a closer look

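In 84 groups of 6 animals (7 members in 12 groups), 9 had a highest or lowest animal that stood apart from the others by Dixon's ratio. The cut-off gives about 1 group in 20 for 6 normal values of equal spread. CPM from small counts and libraries of unequal depth need not meet that, so the 9 are not read as an excess. At 1000 ug/m3 on day 7, animal 037 had 61.4 CPM of Cd79b (7 counts), where the others had 19 to 26.2 CPM, and 43.9 CPM of Cd22 (5 counts), where the others had 13.4 to 17.8 CPM. At 1000 ug/m3 on day 27, animal 045 had 37.9 CPM of Cd22 (6 counts) against 16.2 to 23.5 CPM in the others, and 31.6 CPM of Cr2 (5 counts) against 12.7 to 19.1 CPM. Both are shallow libraries. At 1000 ug/m3 on day 1, animal 029 had 8.46 CPM of Pax5 (9 counts) against 3.01 to 4.62 CPM in the others (4 to 6 counts).

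The other 4 were air animals. Animal 069 of air L at day 7 had 9.50 CPM of Cd79b against 18.2 to 22.7 CPM in the others, and 1.25 CPM of Fcer2 against 3.19 to 4.04 CPM. Animal 068 of the same group had 21.1 CPM of Cr2 against 10.4 to 13.7 CPM, and animal 051 of air L at day 1 had 8.19 CPM of Cr2 against 13.6 to 14.9 CPM.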

How the results depend on the processing

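No exposure comparison gained a call of a member under any alternative run, and 0 members were called in all 72 fits that left out 1 library. Counts of called members changed as follows. For 1000 against 200 ug/m3 at day 7 the count was 1 in place of 2 without a filter and in a fit of all 72 libraries, and 3, with Ms4a1 added, without scaling factors and with only those groups. For day 7 against day 1 at 1000 ug/m3 it was 0 in place of 1 without scaling factors, with a filter of 1 CPM in 6 libraries, without a filter and in limma-voom, and with only those groups Cd79b (0.55, adjusted p = 0.0334) was called in place of Cd22. For day 27 against day 7 at 1000 ug/m3 it was 1 in place of 0 when only the groups compared were fitted (Cd79b, adjusted p = 0.0111). For day 7 against day 1 at 200 ug/m3 it was 1 in place of 2 in limma-voom and with only those groups, where Fcer2 was not tested. For day 27 against day 7 at 200 ug/m3 it was 0 in place of 1 with only those groups (Cr2, adjusted p = 0.177). The cause was not tested. Of the 28 pairs of members, 8 in place of 16 passed with all 72 libraries.

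Small exposure differences changed sign. In limma-voom they were -0.01 for Cd22 at 1000 ug/m3 and at 200 ug/m3 on day 1, and -0.02 for Cr2 at 200 ug/m3 on day 27. With 1 library left out, values at 1000 ug/m3 on day 1 ran between -0.13 and 0.21 for Cd22, -0.04 and 0.36 for Cd79b, -0.19 and 0.46 for Fcer2 and -0.10 and 0.30 for Ms4a1. They ran between -0.11 and 0.14 for Cd22 at 200 ug/m3 on day 1. On day 7 they ran between -0.17 and 0.11 for Blk and -0.06 and 0.23 for Pax5 at 1000 ug/m3, and -0.11 and 0.05 for Cd22 at 200 ug/m3. On day 27 they ran between -0.16 and 0.01 for Cd22 at 1000 ug/m3, and at 200 ug/m3 between -0.16 and 0.19 for Cr2 and -0.05 and 0.31 for Ms4a1.

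Without the 3 shallow libraries, with the number series as a block, with RLE factors and in DESeq2, every count of called members was as reported. No paired analysis was possible because the animal numbers differ between all groups. Depth limits Pax5 and Blk at day 1, and the few counts of its row limit Cd79a at every day.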
